A study of Mus musculus with 7 samples.

Results

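Keratins are the intermediate filament proteins of epithelial cells. A filament is built from a type I and a type II chain, and each epithelial layer makes its own pairs. In the skin, basal keratinocytes make Krt5 and Krt14, the layers above them make Krt1 and Krt10, and the growing hair follicle adds a series of keratins for its inner root sheath and for the hair shaft. Keratin-associated proteins fill the space between keratin filaments in the hair shaft, and lymphocytes are not known as a source of them. The members described here are all rows of the deposited table whose symbol begins with Krt or Krtap followed by a digit. They numbered 104 of 24084 gene symbols, 52 of them keratins and 52 keratin-associated protein genes, and they were chosen by name.

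RNA sequencing was done on 7 libraries of sorted Tregs, the Foxp3-dependent regulatory class of CD4 T cells. They came from skin (4 libraries, skin 1 to 4) and from skin-draining lymph nodes (SDLN, 3 libraries, SDLN 1 to 3). The labels call the skin telogen, a term for hair follicles at rest. How the keratins of the growing follicle counted in skin 3, given below, relate to that label was not tested. All mice were aged 6 weeks and carried the Foxp3-DTR allele, which also carries GFP per the design text, so skin and SDLN shared strain and age. The labels give neither the sort gates nor the number of animals in a library, and nothing says that the libraries came from separate animals, so p-values measure the spread between these libraries, which may be technical. For skin 1 the tissue entry reads lymph node, against a title and a source name that both give skin, and it was kept in skin.

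Gene counts totalled 11009609 to 13921238 in the skin libraries, against 13123241 to 14785751 in the SDLN libraries. Skin 3 thus had the lowest total. A count of 3, taken as the limit that a count of 0 allows, stood for 0.212 to 0.274 CPM (counts scaled to library size, with TMM factors) in skin libraries and for 0.202 to 0.2298 CPM in SDLN libraries. Foxp3 had 106, 246, 125 and 194 CPM in skin 1 to 4, against 68.4, 94.7 and 102 CPM in SDLN 1 to 3, and the 8 listed T cell and Treg genes in the table had counts in every library.

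Nearly all keratin and keratin-associated counts stood in a single library. Of 40825 such counts in all 7 libraries, 97.0% were in skin 3. Members summed to 493, 144, 39595 and 259 counts in skin 1 to 4, against 145, 84 and 105 counts in SDLN 1 to 3. Skin 3 therefore stood far above every other library of either tissue. The members took 0.360% of the gene counts of skin 3 (95% exact binomial interval 0.356% to 0.363%), while in the other skin libraries they took at most 0.00411% (0.00376% to 0.00449%). In SDLN they took at most 0.000981% (0.000828% to 0.00115%). These intervals cover counting error only, since PCR copies are not independent molecules.

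**Figure D1:**
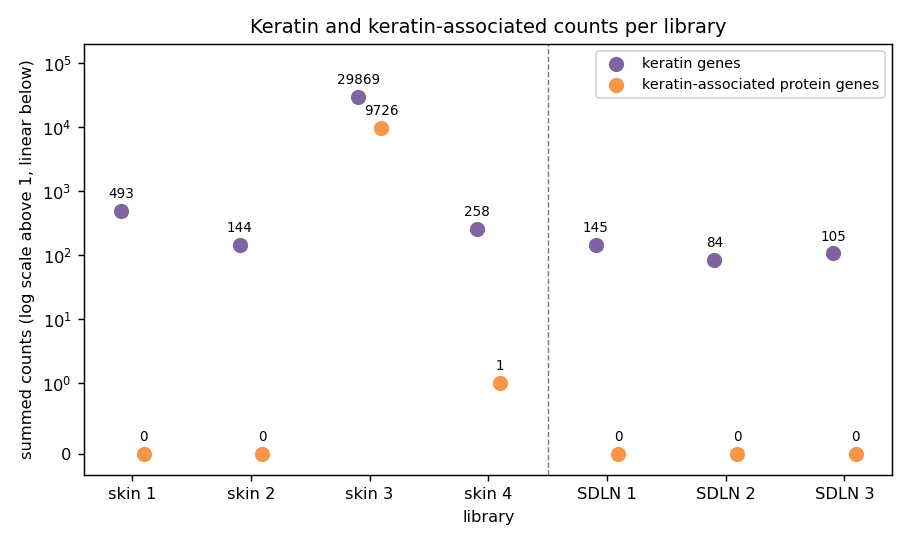
Summed counts of the 52 keratin genes and the 52 keratin-associated protein genes in each library, on an axis that is logarithmic above 1 and linear below, with skin left of the dashed line and SDLN right of it; the number over a point is its count. Skin 3 holds 29869 keratin and 9726 keratin-associated counts, and the other 6 libraries hold at most 493 and 1.

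On the CPM scale, members summed to a mean of 884 ± 1719 CPM in skin (SD, n = 4), with a median of 31.7 CPM, against 7.85 ± 2.01 CPM in SDLN (SD, n = 3). The skin SD exceeded the skin mean. Without skin 3, the sum was 24.96 ± 17.7 CPM in skin (SD, n = 3), with a range of 11.6 to 45.0 CPM, against 5.75 to 9.76 CPM in SDLN. Skin libraries other than skin 3 thus also lay above the SDLN libraries, by a far smaller margin and on few genes. Of the 18.3 CPM of skin 4, Krt222 made up 12.9 CPM, and SDLN libraries also held it, at 2.30 to 4.37 CPM. The place of skin 4 above SDLN thus rests on that gene. In bulk samples, fewer cells of a type and less RNA per cell cannot be told apart, and whether these transcripts came from the sorted cells or from skin RNA carried along was not tested.

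The number of members seen followed the same split. Members with at least 1 count numbered 3, 2, 74 and 8 in skin 1 to 4, against 6, 6 and 5 in SDLN 1 to 3. In all, 75 members had a count somewhere, 60 of them in skin 3 alone, and 29 had no count in any library. A pattern of at least 10 counts in skin 3 and none in the other 6 libraries held for 56 of the 104 members, beside a background of 2.48% of all 24084 genes (598 genes). No member had that pattern in any other library. Among all genes it was met by 12, 20 and 47 genes in skin 1, 2 and 4, against 4 to 15 genes in the SDLN libraries, so skin 3 stood apart for genes other than keratins too.

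**Figure D2:**
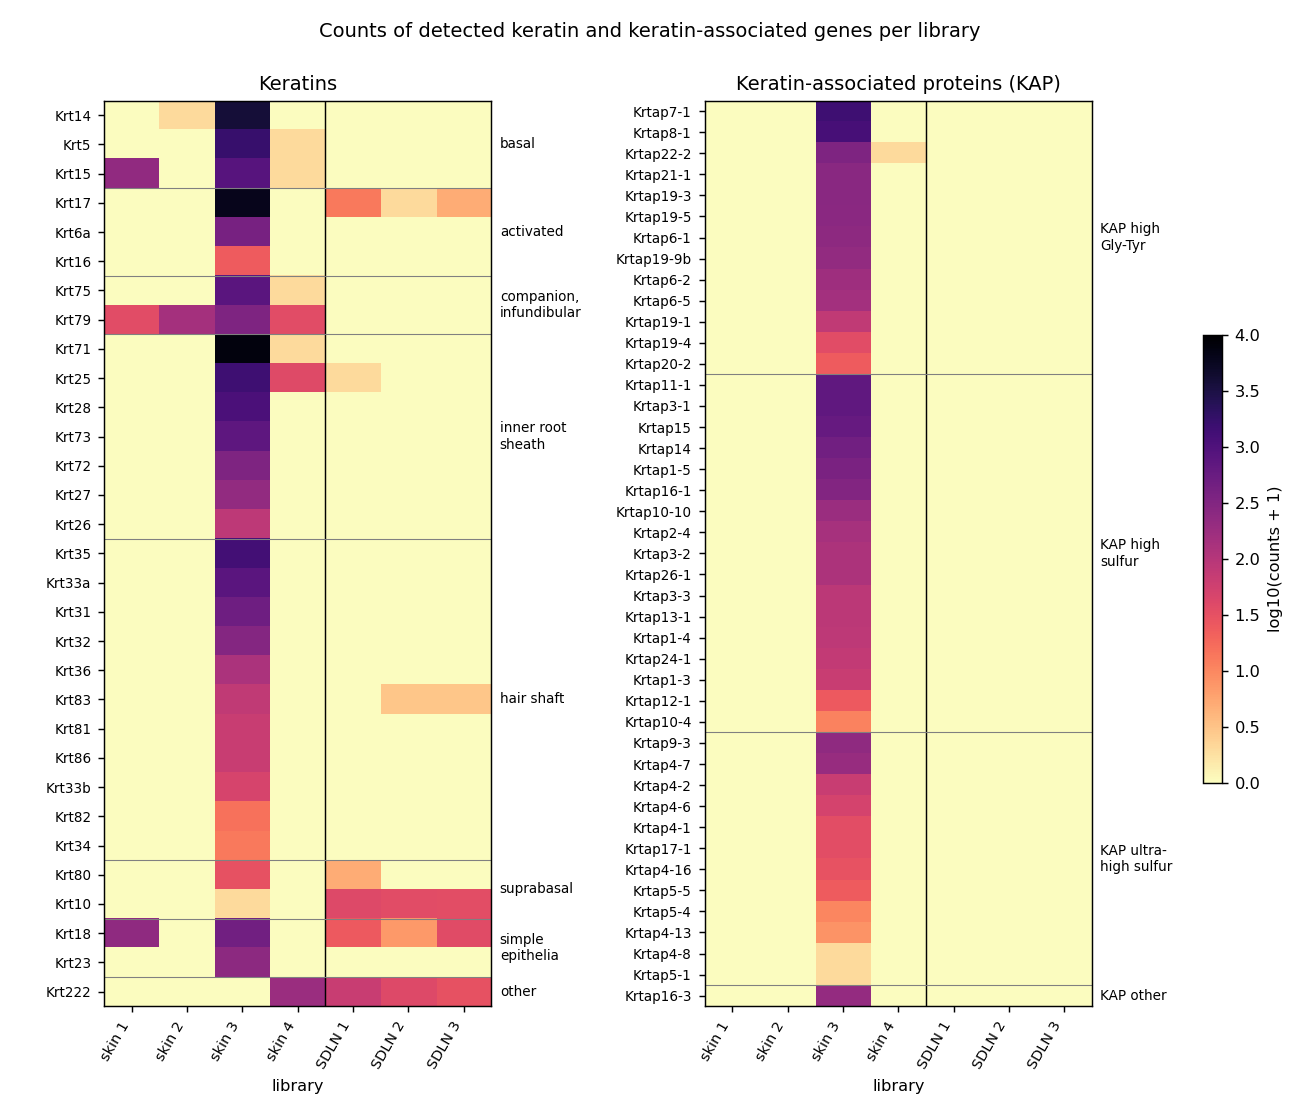
Counts of 74 detected members (log10 of counts + 1, color) in each library, grouped by the layer or family the genes are known for, with keratins on the left and keratin-associated proteins on the right; the vertical line separates skin from SDLN. The column of skin 3 is filled for every plotted gene but Krt222, while Krt79, Krt18, Krt15, Krt25 and Krt222 are the members with more than 10 counts in another skin library, and Krt10 is seen in the 3 SDLN libraries.

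Keratins of the inner root sheath, the sleeve that molds the growing hair, held the largest share of the keratin and keratin-associated counts of skin 3, at 29.6% (95% exact binomial interval 29.2% to 30.1%). Summed over 8 genes they had 0, 0, 11729 and 38 counts in skin 1 to 4, against 1, 0 and 0 counts in SDLN 1 to 3. Krt71, the main type II keratin of the sheath (chromosome 15, 101733949 to 101743109, in mm10), had 0, 0, 7823 and 1 counts in skin 1 to 4 and none in SDLN. It was the most counted member and held rank 142 among all genes in skin 3. Krt25, a type I partner (chromosome 11), had 0, 0, 1460 and 37 counts in skin 1 to 4, against 1, 0 and 0 in SDLN 1 to 3, and was the sole sheath keratin with more than 1 count outside skin 3.

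The other sheath keratins were confined to skin 3 among these 7 libraries. Krt28 had 1096 counts there, Krt73 had 710, Krt72 had 343, Krt27 had 212 and Krt26 had 85. Krt74, annotated as a pseudogene in the mouse, had no count in any library. Per length, type I chains of the sheath (Krt25 to Krt28) summed to 137 CPM per kilobase of exon in skin 3, against 357 CPM per kilobase for the type II chains (Krt71 to Krt73), so type II transcripts were the more abundant in this pair.

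Keratins of the hair shaft, which harden the cortex and cuticle of the hair, were present in skin 3 and nearly absent elsewhere. Summed over the 15 hair-shaft keratins in the table they had 0, 0, 3317 and 0 counts in skin 1 to 4, against 0, 3 and 2 counts in SDLN 1 to 3. Krt35, an early keratin of the matrix and cortex, led with 1331 counts in skin 3 and 0 in every other library. Krt33a had 782 counts in skin 3, Krt31 had 488, Krt32 had 296 and Krt36 had 126, and these 4 also had no count elsewhere.

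Summed, the type II chains of the shaft were far lower than the type I chains. Krt83 had 79 counts in skin 3, against 0, 2 and 2 counts in SDLN 1 to 3, Krt81 had 66 counts in skin 3 and Krt86 had 65. Krt82, also type II, had 14 counts in skin 3. The type I chains Krt33b and Krt34 were low too, with 46 and 12 counts in skin 3. Per length, the type I chains (Krt31 to Krt36) summed to 134 CPM per kilobase and the named type II chains to 9.95 CPM per kilobase, the reverse of the order in the sheath. Several of these genes are near copies: of all 50-base stretches in their transcripts, Krt81 shared 37.7% and Krt86 43.3% with another gene, most often with each other, while Krt35 shared 2.75%. Reads with several alignments stood on a summary line of the table and not on genes, so counts of such copies may be too low. Krt39, Krt40 and Krt84 had no count in any library.

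Keratins of basal cells and of the outer root sheath, the follicle's continuation of the basal layer, were also high in skin 3. Krt14 (chromosome 11, 100203162 to 100207548) had 0, 1, 3801 and 0 counts in skin 1 to 4 and none in SDLN. Its partner Krt5 had 0, 0, 1706 and 1 counts in skin 1 to 4 and none in SDLN. Per length, Krt14 stood at 189 and Krt5 at 67.9 CPM per kilobase in skin 3, a ratio of 2.78 between the partners. Krt15, a basal keratin also known from the stem cell bulge of the follicle, had 225, 0, 861 and 1 counts in skin 1 to 4 and none in SDLN, so skin 1 held it without Krt5 or Krt14.

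Krt17, Krt6a and Krt16 are induced in wounded epidermis and are made constitutively in parts of the hair follicle. Krt17 (chromosome 11, 100256217 to 100261029) had 0, 0, 6153 and 0 counts in skin 1 to 4, against 12, 1 and 4 counts in SDLN 1 to 3. Per length it was the highest member of skin 3, at 347 CPM per kilobase, ahead of Krt71 at 313 and Krt14 at 189 CPM per kilobase. Krt6a had 398 counts and Krt16 had 23 counts in skin 3, with none elsewhere. Krt6b had no count in any library, but it shared 50.1% of its 50-base stretches with another gene and Krt6a shared 57.2%, so the split between this pair is uncertain. Krt75, the keratin of the companion layer between the root sheaths, had 790 counts in skin 3, 1 count in skin 4 and none in the other libraries.

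Keratins of the differentiated layers between hairs had few or no counts in the same library. Krt1 and Krt2, which mark the suprabasal epidermis, had no count in any library, and neither had Krt77, Krt78, Krt76 or Krt9. Krt10, the partner of Krt1, had 1 count in skin 3. Krt80, the remaining gene of this list, had 30 counts in skin 3, against 4, 0 and 0 in SDLN 1 to 3. The 8 suprabasal keratins summed to 31 counts in skin 3, or 0.0783% of its member counts (95% exact binomial interval 0.0532% to 0.111%), against 6368 counts for Krt5, Krt14 and Krt15. Krt1 and Krt2 shared none of their 50-base stretches with another gene. Among other genes of keratinocyte differentiation, loricrin (Lor) and Flg2 likewise had no count in any library, but others were present in skin 3. Ivl, which encodes the envelope protein involucrin, had 0, 0, 1423 and 1 counts in skin 1 to 4 and none in SDLN. Krtdap had 203 counts in skin 3, Calml3 had 183 and Cdsn, a gene of the cornified-layer junctions, had 149, each with 0 elsewhere. Dmkn had 374 counts in skin 3 and 114 in skin 4, and Sbsn had 94, 453, 461 and 301 counts in skin 1 to 4, against 41, 41 and 45 counts in SDLN 1 to 3.

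Keratins of simple epithelia appeared in part. Krt18 is described with the tested genes, and Krt23 had 252 counts in skin 3 and none elsewhere. Krt7, Krt8, Krt19 and Krt20 had no count in any library. Krt8, the usual partner of Krt18, shared 29.7% of its 50-base stretches with another gene, most often with the pseudogene Krt8-ps. Keratins of internal stratified epithelia and of the cornea (Krt4, Krt12, Krt13 and Krt24) also had no count in any library.

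Keratin-associated proteins were seen in skin 3 only, apart from a single count of Krtap22-2 in skin 4. They summed to 0, 0, 9726 and 1 counts in skin 1 to 4 and to 0 counts in each SDLN library, and 43 of the 52 genes had a count in skin 3. They made up 24.6% of the member counts of that library (95% exact binomial interval 24.1% to 24.99%). Families are grouped here as in human: high glycine-tyrosine, high sulfur and ultra-high sulfur.

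The high glycine-tyrosine families came highest, with 4739 counts in skin 3 and all 13 genes detected. Krtap7-1 had 1455 counts and Krtap8-1 had 1220, and these were the highest of all keratin-associated genes per length too, at 205 and 186 CPM per kilobase. Krtap22-2 had 348 counts, Krtap21-1 had 272 and Krtap20-2 had 23. Within the Krtap19 family, Krtap19-3 had 264 counts, Krtap19-5 had 262, Krtap19-9b had 219, Krtap19-1 had 79 and Krtap19-4 had 35. The Krtap6 family was more even, with 242 counts for Krtap6-1, 168 for Krtap6-2 and 152 for Krtap6-5.

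High sulfur families summed to 4097 counts in skin 3, with 17 of 19 genes detected. Krtap11-1 led with 692 counts, followed by Krtap3-1 with 684, Krtap15 with 587, Krtap14 with 460, Krtap1-5 with 377 and Krtap16-1 with 305. Members of one family differed widely: Krtap3-2 had 122 counts and Krtap3-3 had 87 beside the 684 of Krtap3-1, and Krtap1-4 had 83 and Krtap1-3 had 66 beside the 377 of Krtap1-5. Krtap10-10 had 183 counts, Krtap2-4 had 138, Krtap26-1 had 119, Krtap13-1 had 86, Krtap24-1 had 74, Krtap12-1 had 24 and Krtap10-4 had 10. Krtap10-10, Krtap10-4 and Krtap2-4 share 44.1%, 41.95% and 43.8% of their 50-base stretches with another gene, and another gene overlaps 43.4% of the exon bases of Krtap10-10.

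Ultra-high sulfur families were the lowest, with 679 counts in skin 3 and 12 of 17 genes detected. Krtap9-3 had 231 counts and Krtap4-7 had 197, and together these held most of the class. Krtap4-2 had 65 counts, Krtap4-6 had 49, Krtap4-1 had 34, Krtap17-1 had 33, Krtap4-16 had 29 and Krtap5-5 had 23. The other 4 detected genes of the class had 1 to 9 counts. Krtap16-3, left ungrouped, had 211 counts in skin 3.

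**Figure D3:**
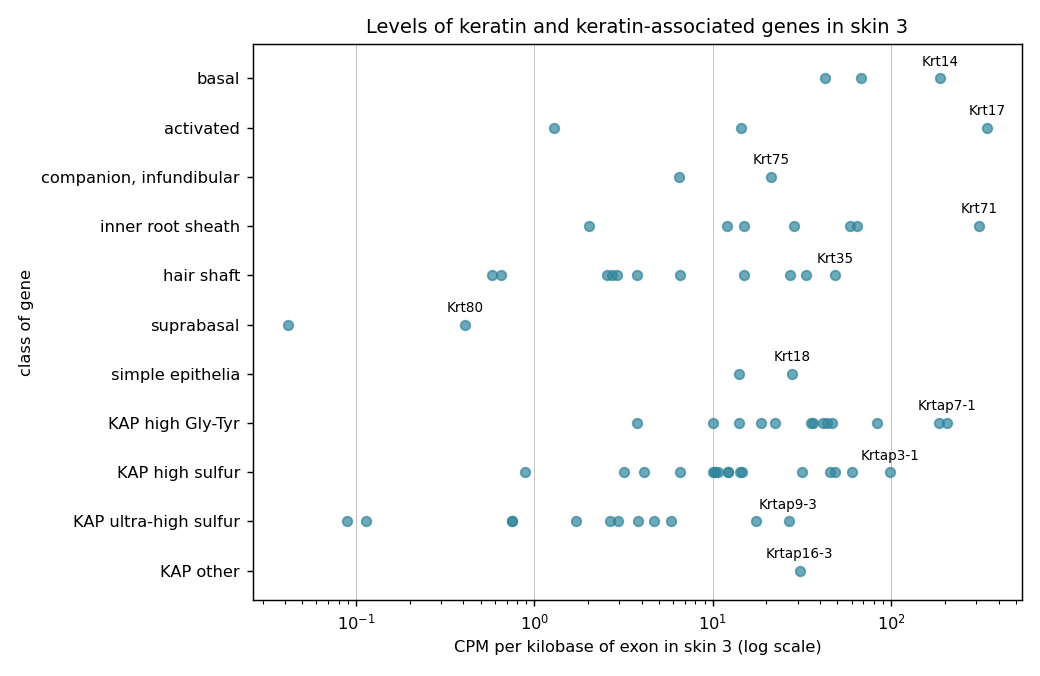
Level in skin 3 of each detected member with a reference length, in CPM per kilobase of exon on a log scale, with 1 point per gene, 1 row per class and the highest gene of each class named. Krt17 and Krt71 lie highest at 347 and 313 CPM per kilobase, and the 2 detected suprabasal keratins lie below 1.

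The members sit in tandem arrays, and the counts of skin 3 covered every array. The type I keratins span chromosome 11 from 99232761 to 100269871 and enclose the keratin-associated genes of that chromosome; 17 of 27 keratins and 17 of 22 keratin-associated genes there had counts in skin 3. The keratin array of chromosome 15, from 101347444 to 102032027, had 13 of 24 located genes detected. The keratin-associated array of chromosome 16, from 88610705 to 89571183, had 20 of 22 genes detected and 6968 counts. Smaller groups on chromosomes 10 and 7 had 3 of 3 and 3 of 5 genes detected, with 217 and 33 counts.

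Promoter sequences are shown for the most counted inner root sheath gene, a hair-shaft keratin-associated gene, and both keratins whose libraries did not overlap between the tissues. Each run is the 250 bases before the RefSeq start site in GRCm38.p6, the same assembly as mm10, read 5′ to 3′ on the gene's strand, with capitals marking matches to TATAAA (the TATA box) or CTTTGAA (the Lef1/Tcf motif) on either strand. The windows, all on the minus strand, are chr15:101743098-101743347 for Krt71, chr16:89487953-89488202 for Krtap8-1, chr15:101940325-101940574 for Krt79 and chr11:99389365-99389614 for Krt10.
Krt71: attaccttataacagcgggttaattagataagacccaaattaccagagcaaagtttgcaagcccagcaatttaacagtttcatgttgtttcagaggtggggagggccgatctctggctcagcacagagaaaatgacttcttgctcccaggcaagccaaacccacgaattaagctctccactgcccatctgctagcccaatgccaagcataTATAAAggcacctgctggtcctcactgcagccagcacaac
Krtap8-1: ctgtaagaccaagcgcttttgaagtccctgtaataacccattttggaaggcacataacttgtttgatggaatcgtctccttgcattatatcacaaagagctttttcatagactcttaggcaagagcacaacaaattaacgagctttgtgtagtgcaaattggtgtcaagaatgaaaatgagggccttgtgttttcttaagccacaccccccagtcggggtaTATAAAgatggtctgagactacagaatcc
Krt79: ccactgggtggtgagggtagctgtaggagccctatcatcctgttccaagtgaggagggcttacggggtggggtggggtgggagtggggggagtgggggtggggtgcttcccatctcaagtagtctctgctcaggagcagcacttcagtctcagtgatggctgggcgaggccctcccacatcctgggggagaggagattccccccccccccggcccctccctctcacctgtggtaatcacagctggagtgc
Krt10: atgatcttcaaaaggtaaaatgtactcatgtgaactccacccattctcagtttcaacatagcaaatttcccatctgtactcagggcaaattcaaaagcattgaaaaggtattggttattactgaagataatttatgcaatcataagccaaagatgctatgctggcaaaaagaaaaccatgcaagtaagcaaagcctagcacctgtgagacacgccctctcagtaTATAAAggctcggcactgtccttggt
TATAAA matched in the Krt71, Krtap8-1 and Krt10 windows, beginning 40, 29 and 26 bases before the start, and neither motif matched in that of Krt79. Over the 54 members with at least 10 counts in skin 3 and a promoter in the table, 74.1% held TATAAA, against 12.4% of all 32851 promoter windows. CTTTGAA was held by 20.4% of the same members, against 4.46% of all windows. Over all 83 member windows, counted or not, the shares were 66.3% for TATAAA and 14.5% for CTTTGAA. The high TATAAA share thus held for the members as a whole. Among those with at least 10 counts in skin 3, TATAAA was held by 57.9% of keratins and 82.9% of keratin-associated genes. A match is a run of letters and not a measured binding site.

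Only 4 of the 104 members passed the low-count filter for the comparison of skin with SDLN, because the filter asks for about 10 counts in at least 3 libraries. Counts were compared with edgeR's quasi-likelihood test, in which 7.24% of all 11376 genes passed a Benjamini-Hochberg adjusted p of 0.05, with 3.28% higher and 3.96% lower in skin. Of the 4 members, 0 were higher and 1 was lower in skin. At an unadjusted p under 0.05 there were 2, and DESeq2 and limma-voom called 1 of 3 and 2 of 4. Libraries of the tissues did not overlap for 2 of the 4, beside 26.6% of all tested genes. The members tested had a median log2 fold change of 1.65, and all tested genes one of 0.05. These counts say little of the members at large, since both genes with no overlap passed the filter through 1 tissue alone.

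Krt79, a keratin of the hair follicle infundibulum and sebaceous duct (chromosome 15, 101929332 to 101940324), was the sole member with counts in all 4 skin libraries. It had 35, 143, 350 and 35 counts in skin 1 to 4, against 0, 0 and 0 counts in SDLN 1 to 3. Every skin library lay above every SDLN library, and skin 3 was the highest. The mean was 11.9 ± 13.1 CPM in skin (SD, n = 4), against 0 CPM in SDLN (n = 3), which makes it at least 56.2-fold higher in skin when 3 counts per SDLN library are taken as the floor. Without skin 3 the skin mean was 5.72 CPM (n = 3) and the bound 26.9-fold. The difference did not pass edgeR's test (adjusted p = 0.0559). It passed without skin 3 (adjusted p = 0.0384), where the skin counts are 35, 143 and 35, and without skin 1 (adjusted p = 0.0487), and the adjusted p was 1.34e-05 to 0.356 over all alternatives.

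Krt10 (chromosome 11, 99385254 to 99389364) was the 1 member lower in skin. It had 0, 0, 1 and 0 counts in skin 1 to 4, against 39, 35 and 33 counts in SDLN 1 to 3. The SDLN libraries were close to each other, and all lay above all skin libraries. The mean was 0.0219 ± 0.0437 CPM in skin (SD, n = 4) and 2.52 ± 0.114 CPM in SDLN (SD, n = 3). From pooled counts, SDLN stood 123 times above skin (95% counting interval 21.7 to 4915), and edgeR's test gave a log2 fold change of -6.36 (SE 1.41, adjusted p = 0.0381). It did not pass without SDLN 1, 2 or 3 (adjusted p = 0.167, 0.176 and 0.165), with DESeq2 (adjusted p = 0.0694) or without the low-count filter (adjusted p = 0.152), and the range over all alternatives was 0.0221 to 0.356. Genes with at least 1 count numbered 9690, 10002, 12639 and 11103 in skin 1 to 4, against 13408, 13845 and 13497 in SDLN, and the part of this difference in the Krt10 result was not tested. Other genes overlap 6.91% of the exon bases of Krt10, and without a stated strand setting their reads cannot be told apart there.

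Krt18, the type I keratin of simple epithelia (chromosome 15, 102028180 to 102032027), had 233, 0, 458 and 0 counts in skin 1 to 4, against 24, 6 and 36 counts in SDLN 1 to 3. Skin was thus split, with 2 libraries above and 2 below all SDLN libraries. The mean was 15.3 ± 19.3 CPM in skin (SD, n = 4) and 1.595 ± 1.17 CPM in SDLN (SD, n = 3), and the test did not pass (log2 fold change 3.26, SE 2.53, edgeR adjusted p = 0.601). With limma-voom, which averages logs, the sign was the opposite (log2 fold change -0.20).

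Krt222, a keratin-like gene without a known place in the hair or epidermis (chromosome 11, 99232761 to 99244085), had 0, 0, 0 and 182 counts in skin 1 to 4, against 65, 39 and 30 counts in SDLN 1 to 3. It was the sole detected member with no count in skin 3. The mean was 3.22 ± 6.44 CPM in skin (SD, n = 4) and 3.11 ± 1.11 CPM in SDLN (SD, n = 3), and the test did not pass (log2 fold change 0.05, SE 2.38, edgeR adjusted p = 0.996). Skin 4 alone decided the skin value: without it the log2 fold change was -8.34 (adjusted p = 0.0415).

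**Figure D4:**
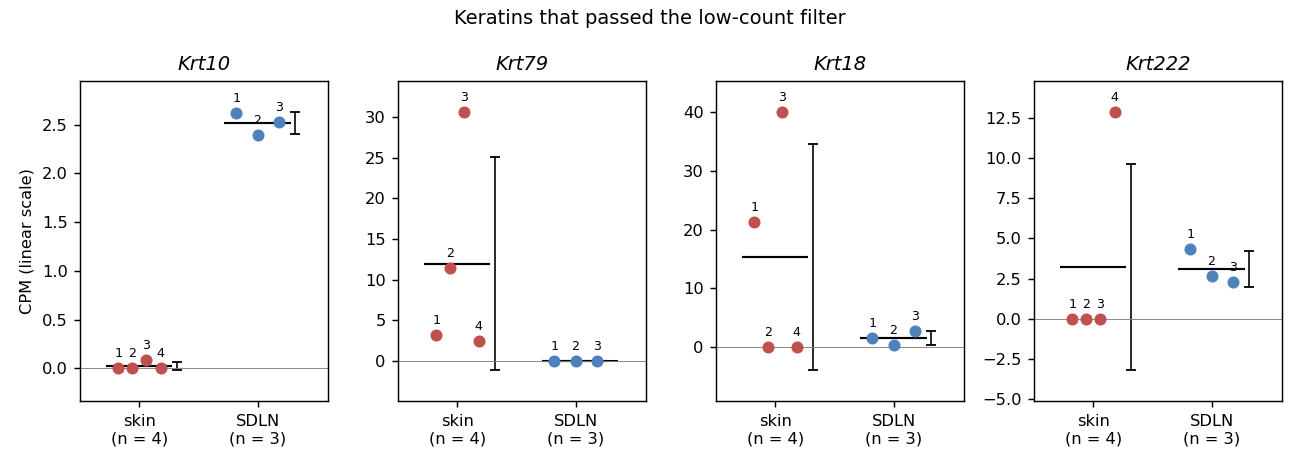
CPM of the 4 keratins that passed the low-count filter in skin (n = 4) and SDLN (n = 3), on linear axes that differ between panels; digits are library numbers, horizontal lines are means and error bars are SDs over libraries. Krt10 and Krt79 do not overlap between the tissues, at means of 0.0219 and 11.9 CPM in skin against 2.52 and 0 CPM in SDLN, while Krt18 and Krt222 overlap.

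The other skin libraries each held a few members without the rest. Skin 1 had counts for Krt15, Krt18 and Krt79 only, at 225, 233 and 35. Skin 2 had 143 counts of Krt79 and 1 of Krt14. Skin 4 had 182 counts of Krt222, 37 of Krt25 and 35 of Krt79, and single counts of 5 members, all of which had at least 348 counts in skin 3. Of the members other than Krt79, none was counted in all 3 of these libraries. In SDLN, 8 members had a count in some library, and 4 of them, Krt10, Krt17, Krt18 and Krt222, had counts in all 3.

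Keratinocyte, hair follicle, sebaceous and fibroblast marker sums were, like the keratins, highest in skin 3. Keratinocyte genes other than keratins summed to 337, 247, 1651 and 388 CPM in skin 1 to 4, against 69.5, 67.3 and 75.2 CPM in SDLN 1 to 3. Of the 27 in the table, 25 had counts in skin 3, but only 6, 6 and 11 in skin 1, 2 and 4. Outside skin 3 most of the sum was Dst. It had 274, 157 and 264 CPM in skin 1, 2 and 4, against 51.7, 48.1 and 59.1 CPM in SDLN 1 to 3. Dsc3, a desmosomal cadherin, had 1735 counts in skin 3 and 0 in the other 6 libraries. Dst and Epcam passed edgeR's test as higher in skin (log2 fold change 2.292 and 3.601, adjusted p = 0.0119 and 0.0381), but Epcam had 521, 361, 237 and 768 counts in skin 1 to 4 and was thus lowest in skin 3. Sfn had 4, 308, 1692 and 384 counts in skin 1 to 4, against 93, 110 and 74 counts in SDLN. Lamb3 went the other way, with 0, 0, 3 and 0 counts in skin 1 to 4, against 23, 37 and 22 in SDLN. It did not pass edgeR's test (log2 fold change -4.71, adjusted p = 0.143).

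Hair follicle genes other than keratins followed the follicular keratins more closely. Their sum was 0, 0.0802, 1322 and 15.6 CPM in skin 1 to 4, against 2.83, 2.47 and 1.46 CPM in SDLN 1 to 3, and 12 of 15 had counts in skin 3. Prr9 had 0, 0, 8329 and 220 counts in skin 1 to 4 and none in SDLN. Tchh, which encodes the trichohyalin that cross-links the inner root sheath, had 1164 counts in skin 3 and 0 elsewhere, and Foxn1, a transcription factor of the follicle, had 576 and 0. S100a3, a calcium-binding protein of the hair cuticle, had 0, 1, 3614 and 0 counts in skin 1 to 4, against 25, 23 and 13 counts in SDLN. Shh, Crisp1 and Dsg4 had no count in any library.

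Fibroblast and sebaceous genes were high in skin 3 as well. The 10 fibroblast genes summed to 11.4, 10.03, 3139 and 3.25 CPM in skin 1 to 4, against 0.942, 0.890 and 0.383 CPM in SDLN 1 to 3, and all 10 were highest in skin 3. Col3a1, a fibrillar collagen chain, had 10, 22, 16481 and 6 counts in skin 1 to 4 and none in SDLN. Sebaceous genes summed to 134, 0.722, 875 and 21.7 CPM in skin 1 to 4, against 7.27, 6.64 and 3.52 CPM in SDLN, with Scd1 at 1336, 6, 6090 and 70 counts in skin. So skin 1, the library with Krt15 and Krt18, was also second for the sebaceous sum, through Scd1 (122 CPM) and Awat2 (11.8 CPM). Mgst1 had 1, 3, 3819 and 0 counts in skin 1 to 4 and none in SDLN. Elovl3 had 82 counts and Awat1 had 20 counts in skin 3, with 0 elsewhere. Of the 6 sebaceous genes, 4 were highest in skin 3. Scd3 was not, with 0, 0, 0 and 237 counts in skin 1 to 4, against 0, 2 and 2 counts in SDLN. Awat2 had no count in skin 3, but 85, 55 and 27 counts in SDLN 1 to 3.

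Not every non-T-cell list peaked in skin 3. Mast cell genes summed to 0, 0.16, 9.36 and 25.96 CPM in skin 1 to 4, against 11.8, 12.5 and 6.59 CPM in SDLN. B cell genes summed to 30.8, 2.97, 3.235 and 38.1 CPM in skin, against 80.1, 78.0 and 101 CPM in SDLN. Endothelial genes had 72.9 CPM in skin 3, the highest skin sum, but 544, 524 and 386 CPM in SDLN. Skeletal muscle genes summed to 0.822, 6.90, 52.8 and 33.0 CPM in skin, against 16.55, 20.9 and 16.55 CPM in SDLN. Langerhans cell, dendritic cell and macrophage genes summed to 3131, 2696, 739 and 10130 CPM in skin 1 to 4. Their sum in SDLN 1 to 3 was 340, 388 and 543 CPM, and skin 3 had the lowest skin sum. Most of each skin sum was Cd74, at 2166, 1493, 484 and 6998 CPM in skin 1 to 4. Among skin libraries, Cd74, H2-Aa, H2-Ab1 and Lyz2 were lowest in skin 3, but Csf1r, Mrc1, Cd68, C1qa and C1qb were not. C1qb, with 0, 0, 40.6 and 11.4 CPM in skin 1 to 4, was highest in skin 3. Cd207, the defining gene of Langerhans cells, had no count in any library. T cell and Treg genes summed to 12230, 11640, 7835 and 12440 CPM in skin 1 to 4, against 8338, 8231 and 9898 CPM in SDLN, with skin 3 lowest of all 7 libraries. Most of the skin 3 sum was Ctla4 and Ikzf2, at 2590 and 1994 CPM, each above all SDLN libraries. Among skin libraries, Ctla4, Ikzf2, Il2ra, Cd4 and Cd3g were lowest in skin 3, but Foxp3, Cd3d and Cd3e were not. Melanocyte genes summed to 20.4, 0, 17.1 and 0.0707 CPM in skin 1 to 4, against 20.1, 23.7 and 19.3 CPM in SDLN, and Tyr and Tyrp1, which define pigment cells, had no count in any library. Dct, another pigment gene of this list, had 149 counts in skin 3 and 0 in the other 6 libraries, while Pmel had 223, 0, 43 and 1 counts in skin 1 to 4, against 295, 344 and 252 counts in SDLN 1 to 3. The part of any of these cell types in the keratin counts was not tested.

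**Figure D5:**
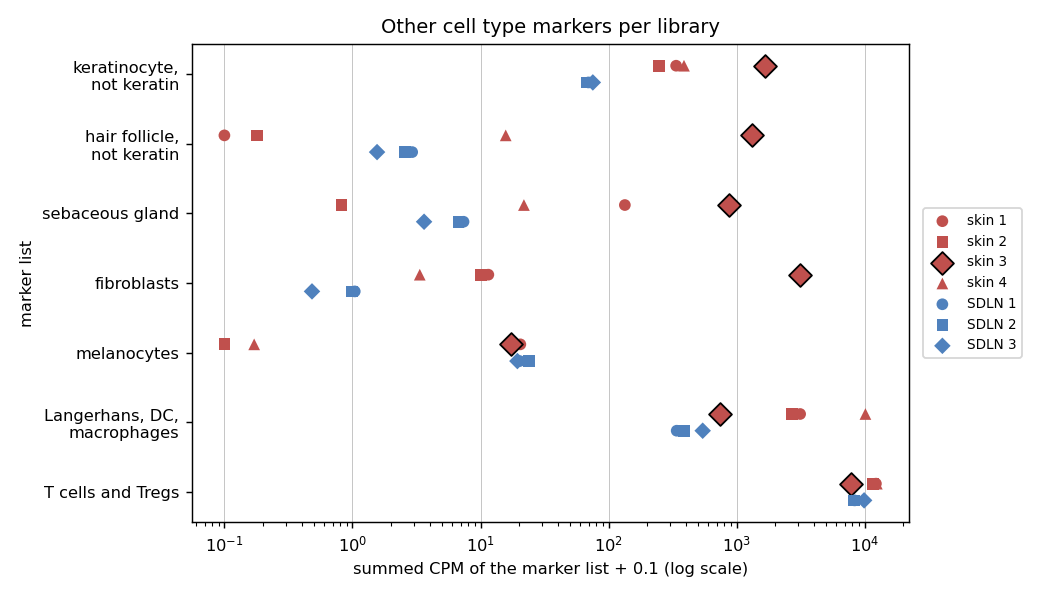
Summed CPM + 0.1 of 7 marker lists without keratins (log scale), with 1 symbol per library, skin in red above SDLN in blue on each row, and skin 3 enlarged with a black edge. Skin 3 lies highest for keratinocyte, hair follicle, sebaceous and fibroblast genes, at 1651, 1322, 875 and 3139 CPM, and lowest of the skin libraries for Langerhans cell, dendritic cell and macrophage genes and for T cell and Treg genes.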

How the data were processed

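For each of 7 libraries the authors deposited raw counts of reads by gene symbol, not normalized; the submitters' processing notes name HTSeq 0.6.1, TopHat2 2.0.12, Bowtie2 2.1.0.0 and mm10. RNA was column-purified from frozen sorted cells and made into cDNA with the SMARTer Ultra Low Input kit, per the labels. The gene annotation and strand setting were not stated in the labels. Alignments to several places, kept on a line of their own, made up 61.2% to 70.4% of all counts in the table, so near-identical genes may be undercounted.

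Genes were filtered with filterByExpr (minimum count 10), scaled by TMM on the totals of all genes, and tested with edgeR 4.0.16 (R 4.3.3, quasi-likelihood, robust, tissue as sole term, two-sided). SEs are the log2 fold change over the root of the F statistic. The alternatives used limma 3.58.1, DESeq2 1.42.0 and the settings named in the closing section. Levels per length use GENCODE exons of the same build, in which 103 members were found by symbol. RefSeq promoters were found for 82 members. Members are named when they passed the filter or had 10 counts in any library, and listed genes of other cell types by mean CPM, for the lists that moved with the members. Members, lists and motifs were chosen with earlier results of these data known, and the families of keratin-associated genes after their values were seen. One member is not reported by name here.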

Additional observations from a re-analysis of the deposited data

Results flagged for a closer look

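Libraries within skin were compared by Dixon's ratio, the gap from the extreme library to its nearest neighbor over the range of all 4 and set against its 95% critical value. For normally distributed values, chance passes it in about 1 in 20 groups. The ratio is 1 by construction wherever 3 of the 4 skin libraries have no count, so this rate does not hold for such members. A flag on such a member shows only that 1 skin library had counts. The share of all genes passing the same rule was not tested. Of the 71 members with at least 10 counts in some library, 68 passed it, 67 of them through skin 3. The ratio rounded to 1 for 65 of the 68, Krt17, Krt71, Krt14 and Krt5 among them. For Krt222 the library that stood apart was skin 4. For Krt10 the extreme was the single count of skin 3. The ratio was 0.999 for Krt75, 0.998 for Krtap22-2 and 0.979 for Krt25, which have counts in skin 4 too. These flags share 1 library and are not independent of each other.

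The summed CPM of all members passed with 0.990, that of keratins with 0.987 and that of keratin-associated genes with 1, all through skin 3. Among 11 lists of other genes, 4 passed through the same library: keratinocyte genes with 0.900, hair follicle genes with 0.988, sebaceous genes with 0.848 and fibroblast genes with 0.997. Krt79, Krt15 and Krt18 did not pass.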

How the results depend on the processing

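Against 373 genes higher in skin, there were 188 without the low-count filter, 923 with DESeq2, 247 with limma-voom, 72 at an adjusted p under 0.01, and 33 to 582 when 1 library was left out. Against 451 genes lower in skin, there were 70 without the filter, 99 at a mean of at least 5 CPM, 688 with limma-voom, 16 at an adjusted p under 0.01, and 9 to 822 when 1 library was left out. The lowest of these counts came without an SDLN library, and 822 came without skin 3.

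Members higher in skin numbered 0 as reported and 1 with DESeq2, with limma-voom and without robust estimation (Krt79 in each), and 0 to 1 when 1 library was left out. Members lower in skin numbered 1 as reported, 0 without the filter, with DESeq2, at a mean of at least 5 CPM and at an adjusted p under 0.01, and 0 to 2 when 1 library was left out. The log2 fold change of Krt10 was -6.43 without the filter and -6.67 with DESeq2, and -8.07 to -6.06 when 1 library was left out. That of Krt79 was 9.83 with DESeq2, 7.66 with limma-voom and 10.29 without robust estimation, where its adjusted p was 0.0456, and 9.26 to 10.64 when 1 library was left out. Krt222 gave -4.19 with limma-voom and -8.34 to 0.47 when 1 library was left out. Krt18 gave -0.20 with limma-voom. The cause of these changes was not tested.

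Deviations of same-numbered skin and SDLN libraries had correlations of 0.0534, -0.02 and -0.00868. Pairs with unlike numbers ranged from -0.0625 to 0.0648. With so few libraries and no stated animals, these values cannot decide whether same-numbered libraries shared an animal. A replicate block over 6 libraries left 32 genes higher and 10 lower, with 0 members lower, and gave log2 fold changes of -8.30 for Krt222 and -6.44 for Krt10.

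Members detected in skin numbered 10 without skin 3, 75 without skin 1 or skin 2 and 74 without skin 4. In SDLN, 8 members were detected at 1 count, 5 at 3 counts and 4 at 10 counts. The mean summed CPM of members was 24.96 to 1175 in skin and 6.90 to 8.90 in SDLN when 1 library was left out. The filter at 5 CPM gave no value for Krt10 and Krt222, and DESeq2 gave no adjusted p for Krt222. Depth limits the members with few counts: 1 count stood for 0.0673 to 0.0913 CPM.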
